A study of Mus musculus with 9 samples.

Results

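The genes described here are 10 genes of MHC class I antigen presentation in sorted monocytes of a mouse model of neuromyelitis optica (NMO), an autoimmune disease with antibodies against the astrocyte water channel aquaporin 4. They were chosen by name, as 4 class I heavy chains (H2-K1, H2-D1, H2-Q7 and H2-T23), the light chain B2m, the peptide transporter subunits Tap1 and Tap2, and the loading and folding factors Tapbp, Calr and Pdia3. They are 10 of the 23238 gene symbols in the count tables, and all 10 were among the 10107 genes that passed the expression filter and were tested. The samples were 9 libraries in 3 groups of 3, and each library was made from monocytes pooled from 5 wild-type C57BL/6N females aged 12 weeks. Blood_Normal monocytes came from the blood of untreated mice. Blood_NMO and Brain_NMO monocytes came from the blood and the brain, 1 day after NMO-IgG and human complement had been injected into the striatum of a single hemisphere. No library came from mice injected with a control antibody, so the injection itself and NMO-IgG cannot be told apart. In all groups the sort kept CD45+, CD11b+ and Ly6C+ cells and removed P2ry12+ and Ly6G+ cells. Replicates are pools, and p-values measure the spread between these pools.

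MHC class I molecules carry short peptides from inside a cell to its surface, where CD8 T cells and natural killer (NK) cells inspect them. A heavy chain folds with B2m in the endoplasmic reticulum with help from chaperones, receives a peptide that the Tap1 and Tap2 transporter has brought from the cytosol, and leaves for the surface once the peptide fits. Nearly all nucleated cells make these proteins, and interferons and NF-kappaB raise their transcription, so monocytes in inflamed tissue are cells in which the genes are often studied.

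The 3ʹ libraries held between 7584649 and 10419647 counts, of which between 28.4% and 43.6% fell on the ribosomal RNA entry Rn45s. Levels are counts scaled to library size (CPM) after TMM normalization, and 3 counts, taken as the floor of a library, correspond to 0.273 to 0.432 CPM. This floor covers counting error only, since no molecular identifiers are described. In Blood_NMO replicate 3 only 4567 genes had a count, against 6473 to 11556 in the other 8 libraries, and log2 fold changes without it are given where a member or a called group rests on it. The 9 monocyte markers examined all had counts in each group. They summed to 4688 to 6280 CPM in Blood_Normal, 3419 to 5858 CPM in Blood_NMO and 3620 to 6855 CPM in Brain_NMO. Single markers moved in opposite directions, with means of 773, 632 and 232 CPM for Ly6c2 and 304, 483 and 1072 CPM for Ccr2. At an unadjusted p under 0.05 with a fold change of 1.2, 2 of the 9 were lower and 0 higher against Blood_NMO (3.84% and 1.48% of all genes). Against Blood_Normal 2 were lower and 1 higher (4.07% and 1.75%). The blood libraries also held transcripts of other blood cells. The 7 NK cell markers summed to 2054 to 2467 CPM in Blood_Normal and 2359 to 3300 CPM in Blood_NMO, but to 21.3 to 336 CPM in Brain_NMO. The 4 platelet markers summed to 152 to 1425, 354 to 1218 and 0 to 39.3 CPM in the same order, and the 5 erythroid markers to 898 to 4277, 1641 to 5403 and 1.05 to 402 CPM. Microglia markers went the other way, with 9 genes that summed to 136 to 384, 0.0909 to 244 and 517 to 869 CPM. Among the microglia markers Tmem119, Olfml3, Gpr34 and Fcrls were at 0 in all 6 blood libraries. In Brain_NMO, Tmem119 was at 78.4, 0 and 21.0 CPM and Gpr34 at 3.17, 0 and 0 CPM. Olfml3 (8.71 to 33.2 CPM) and Fcrls (50.5 to 77.5 CPM) had counts in every brain library. P2ry12 overlapped, with 0.920 to 43.4 CPM in Blood_Normal and 9.95 to 69.7 CPM in Brain_NMO. Cx3cr1, which the paper lists as shared by monocytes and microglia, had 112 to 322 CPM in Blood_Normal and 297 to 544 CPM in Brain_NMO. The 5 neutrophil markers summed to 23.5 to 126, 0.909 to 140.3 and 215 to 293 CPM, and the 5 endothelial markers to 5.62 to 116, 27.3 to 97.2 and 115 to 746.6 CPM. A bulk library cannot tell fewer cells of a type from less RNA per cell. The part of these other cells in the results that follow was not tested.

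In the mouse genome (build mm10) 7 of the 10 genes lie on chromosome 17. H2-K1 is at chr17:33996017-34000347 on the minus strand, H2-D1 at chr17:35262730-35267499 and H2-Q7 at chr17:35439155-35443773 on the plus strand, and H2-T23 at chr17:36029773-36032855 on the minus strand. Tapbp (chr17:33915899-33929292), Tap1 (chr17:34187553-34197225) and Tap2 (chr17:34203527-34216321) are on the plus strand between or beside the heavy chain genes. B2m (chr2:122147686-122153083) and Pdia3 (chr2:121413775-121438687) are both on chromosome 2, and Calr (chr8:84841850-84846934, minus strand) is on chromosome 8. Of the 10 genes, 9 had a promoter entry in the RefSeq table (GRCm38.p6, the patched form of mm10). The 250 bases before the RefSeq start of the 2 classical heavy chains, the non-classical H2-Q7 and the light chain are printed because these genes share regulatory letters to different degrees while their levels differed between the groups to different degrees. Capitals mark 5 motifs searched on both strands. The first is TGGGGATTCCCCA, the longest inverted repeat around a single base in the H2-K1 window, which holds the kappaB site of the class I enhancer A. The second is an interferon response type motif, GAANNGAAA, which reads TTTCACTTC here because it lies on the opposite strand. The third is an interferon response type motif with wider spacing, a pair of GAAA copies with 2 bases between them. The fourth is TGACG, the core of cyclic AMP response elements, and the last is the CCAAT box, which can also appear as its complement. No 2 of them overlapped in these windows. The windows are chr17:34000348-34000597 (minus strand) for H2-K1, chr17:35262844-35263093 for H2-D1, chr17:35438905-35439154 for H2-Q7 and chr2:122147437-122147686 for B2m, each written 5ʹ to 3ʹ along the gene.
H2-K1: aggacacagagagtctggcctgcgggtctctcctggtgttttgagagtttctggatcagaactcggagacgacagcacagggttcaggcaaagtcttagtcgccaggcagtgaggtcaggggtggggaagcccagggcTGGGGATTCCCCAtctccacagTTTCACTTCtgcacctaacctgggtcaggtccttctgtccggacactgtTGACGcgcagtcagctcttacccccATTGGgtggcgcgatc
H2-D1: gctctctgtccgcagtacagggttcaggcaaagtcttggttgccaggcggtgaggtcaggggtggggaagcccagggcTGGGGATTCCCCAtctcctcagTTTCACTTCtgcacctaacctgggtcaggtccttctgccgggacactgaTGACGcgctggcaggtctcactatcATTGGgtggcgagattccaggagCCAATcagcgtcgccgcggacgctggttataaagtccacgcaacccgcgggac
H2-Q7: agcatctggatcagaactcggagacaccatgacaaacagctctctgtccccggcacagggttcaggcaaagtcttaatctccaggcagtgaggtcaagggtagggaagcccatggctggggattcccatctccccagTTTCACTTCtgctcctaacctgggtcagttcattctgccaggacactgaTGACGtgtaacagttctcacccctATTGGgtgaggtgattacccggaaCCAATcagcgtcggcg
B2m: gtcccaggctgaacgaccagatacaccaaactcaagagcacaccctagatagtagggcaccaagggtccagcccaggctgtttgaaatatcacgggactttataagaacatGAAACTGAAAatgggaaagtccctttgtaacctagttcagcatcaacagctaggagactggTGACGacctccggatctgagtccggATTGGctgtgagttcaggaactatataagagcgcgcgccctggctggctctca

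The inverted repeat was found in 3 of 27025 promoter windows of this length (0.0111%), those of H2-K1, H2-D1 and H2-Q6, of which the first served to define it. Only the full repeat was searched, so this share does not count shorter kappaB sites. The interferon response type motif was found in 6.35% of windows, the one with wider spacing in 3.05%, the cyclic AMP type in 17.8% and the CCAAT box in 34.5%. The first 2 motifs began 112 and 90 bases before the start of H2-K1, and 172 and 150 bases before that of H2-D1. Neither held the interferon motif with wider spacing. H2-Q7 held the same motifs as these genes except the full inverted repeat. Ahead of its interferon motif its window reads tggggattccca in lower case, a shorter form that the search did not mark. B2m, Tap1 and Pdia3 held the cyclic AMP type and the CCAAT box, and B2m also held the interferon motif with wider spacing, which began 139 bases before its start. H2-T23 held that motif and the CCAAT box, and Tapbp and Calr held the CCAAT box alone among the 5. The H2-K1 and H2-D1 windows aligned over 177 positions with 161 identical (91%), and H2-K1 and H2-Q7 over 168 positions with 148 identical (88.1%). These matches describe letters and not binding.

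Class I genes resemble each other near their 3ʹ ends as well, where these reads start, and the authors counted reads with several alignments. In the last 500 bases of the annotated transcripts, 24 of 1323 stretches of 75 bases in H2-K1 (1.81%) also occurred in another gene, most often H2-D1, whereas 0 of 827 did in the H2-D1 transcripts by themselves. The share was 7.37% in H2-Q7, all with H2-Q5, although H2-Q9 had no entry in the annotation used and stretches shared with it could not be counted. It was 20% in H2-T23, most often with Rab33b (12.4%) and Hook2 (8.45%), which are not class I genes, and less often with H2-T-ps (4.69%). In the transcripts of B2m, Tap1, Tap2, Calr and Pdia3 it was 0, and in Tapbp it was 1.39%. H2-Q7 and H2-T23 counts are therefore the less certain ones.

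**Figure D1:**
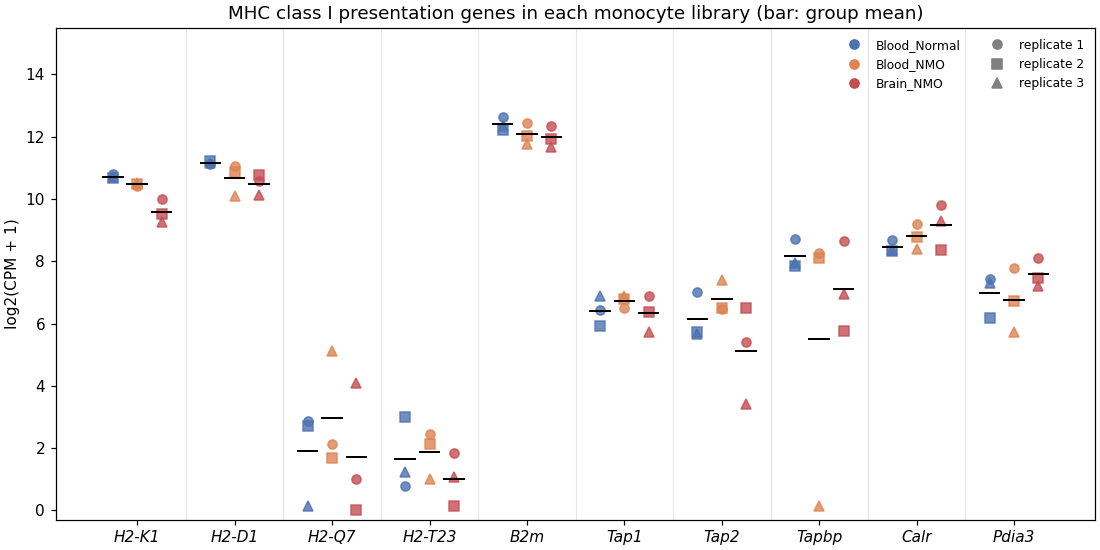
Level of each of the 10 genes in each of the 9 libraries, as log2(CPM + 1), with color for the group, marker shape for the replicate and a bar at the group mean of 3 libraries. H2-K1 sat lower in all Brain_NMO libraries than in any blood library, H2-Q7 and H2-T23 were at low levels in most libraries, and Tapbp was almost absent from Blood_NMO replicate 3.

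H2-K1, the heavy chain of the classical molecule H-2K, was lower in Brain_NMO than in either blood group. It was measured at 1773, 1630.05 and 1667 CPM in Blood_Normal (1690 ± 74.2 CPM, SD, n = 3), and at 1367, 1439.7 and 1468 CPM in Blood_NMO (1425 ± 52.5 CPM). The Brain_NMO libraries had 1027, 732 and 607 CPM (788 ± 216 CPM). Every brain library was below every blood library, and every Blood_NMO library was below every Blood_Normal library. Against Blood_NMO the level in Brain_NMO was 1.81-fold lower, a log2 fold change of -0.85 (standard error, SE, 0.27, adjusted p = 0.598 by edgeR's quasi-likelihood test with Benjamini-Hochberg adjustment). Against Blood_Normal it was 2.14-fold lower, a log2 difference of -1.10 (SE 0.28, adjusted p = 0.224 in the same edgeR test). Both brain comparisons passed the threshold that the study applies, an unadjusted p under 0.05 with a fold change of 1.2, and neither passed an adjusted p of 0.05. The direction and the unadjusted p under 0.05 held in 20 of 20 alternative analyses of each. Between Blood_NMO and Blood_Normal the log2 fold change was -0.25 (SE 0.27, adjusted p = 1), and on plain library totals the H2-K1 levels of these 2 groups overlapped.

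H2-D1 encodes the classical heavy chain H-2D. Its levels were 2244, 2364 and 2289 CPM in Blood_Normal, 2129.8, 1861 and 1100.4 CPM in Blood_NMO, and 1533, 1730.2 and 1115 CPM in Brain_NMO. All 6 libraries of the NMO mice were below the 3 of normal mice, and the NMO blood and brain libraries overlapped. The log2 fold change was -0.66 between Brain_NMO and Blood_Normal (SE 0.29, adjusted p = 0.708, edgeR), which passed the study's unadjusted threshold. That call was lost without Blood_Normal replicate 2 (-0.64), Blood_Normal replicate 3 (-0.64) or Brain_NMO replicate 3 (-0.48), and also when each library had to hold 10 counts of a gene (-0.58) or with DESeq2 (-0.55). Between Blood_NMO and Blood_Normal the value was -0.44 (SE 0.28, adjusted p = 1), and it was -0.20 without Blood_NMO replicate 3. Between Brain_NMO and Blood_NMO it was -0.22 (SE 0.28, adjusted p = 1). On plain library totals H2-D1 overlapped in every comparison, with 1788, 2269 and 2446 CPM in Blood_Normal and 1301, 1866 and 1175 CPM in Brain_NMO. On totals without Rn45s it was lower without overlap in both NMO groups than in Blood_Normal. There it had 3171 to 3606 CPM in Blood_Normal, 2230 to 3048 CPM in Blood_NMO and 1744 to 2661 CPM in Brain_NMO.

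The non-classical heavy chains gave few counts. H2-Q7, 1 of the genes for Qa-2 molecules, had 44, 53 and 1 counts in Blood_Normal, 24, 20 and 370 counts in Blood_NMO, and 9, 0 and 161 counts in Brain_NMO. Replicate 3 was the highest library of both NMO groups and the lowest of the normal group. H2-T23, which encodes Qa-1, the ligand of the NK receptor pair CD94 and NKG2A, had 5, 66 and 13 counts in Blood_Normal, 32, 31 and 11 in Blood_NMO, and 23, 1 and 11 in Brain_NMO. For neither gene did any 2 groups separate, and the standard errors of their log2 fold changes lay between 2.61 and 3.04, so that changes of several-fold were not detectable with these libraries. Without Blood_NMO replicate 3 the H2-Q7 value was 1.05 between Brain_NMO and Blood_NMO and -0.53 between Blood_NMO and Blood_Normal.

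B2m, the shared light chain, was measured at 6334, 4809 and 5208 CPM in Blood_Normal, 5577, 4189 and 3513 CPM in Blood_NMO, and 5246, 3923 and 3226 CPM in Brain_NMO. The 3 groups overlapped after TMM scaling. On plain library totals the 3 Brain_NMO libraries (3398 to 4453 CPM) lay below the 3 of Blood_Normal (4616 to 5564 CPM). On totals without Rn45s these groups overlapped (5046 to 7336 CPM in Brain_NMO and 7108 to 8949 CPM in Blood_Normal). The largest fitted log2 fold change was -0.40 between Brain_NMO and Blood_Normal (SE 0.23, adjusted p = 0.806, edgeR), and its unadjusted p was under 0.05 in 4 of 20 alternatives. Between Brain_NMO and Blood_NMO it was -0.10 (SE 0.23).

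Tap1 and Tap2, the subunits of the peptide transporter, overlapped between all groups. Tap1 ranged from 59.7 to 118 CPM in Blood_Normal, from 88.5 to 117 CPM in Blood_NMO and from 52.2 to 116 CPM in Brain_NMO. Tap2 was at 127, 52.2 and 49.3 CPM in Blood_Normal, 86.7, 89.7 and 169 CPM in Blood_NMO, and 41.4, 90.5 and 9.65 CPM in Brain_NMO. Its lowest and highest libraries were Brain_NMO replicate 3 and Blood_NMO replicate 3. The Tap2 log2 fold change between Brain_NMO and Blood_NMO was -1.29 with a SE of 0.95 (adjusted p = 1, edgeR), and it was -0.89 without Blood_NMO replicate 3.

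Tapbp encodes tapasin, which holds the empty heavy chain at the transporter. It had 420, 227 and 245 CPM in Blood_Normal, 308, 274 and 0.0909 CPM in Blood_NMO, and 399.7, 53.6 and 123 CPM in Brain_NMO. Blood_NMO replicate 3 held 1 Tapbp count, against 564 to 3534 counts in the other 8 libraries. The log2 fold change between Brain_NMO and Blood_NMO was -0.01 (SE 1.29), its sign differed between alternatives, and it was -0.59 without Blood_NMO replicate 3.

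Calr (calreticulin, a chaperone that holds the glycan of new heavy chains) had 413, 324 and 327 CPM in Blood_Normal, 587, 442 and 337 CPM in Blood_NMO, and 888, 327 and 632 CPM in Brain_NMO. Brain_NMO replicate 2 lay within the range of the normal libraries. On plain library totals both NMO groups were above the normal group for Calr without overlap. Its levels there were 311 to 349 CPM in Blood_Normal, 445 to 489 CPM in Blood_NMO and 353 to 754 CPM in Brain_NMO. On totals without Rn45s Blood_NMO (648 to 840 CPM) stayed above Blood_Normal (479 to 583 CPM). On the same totals Brain_NMO (503 to 1242 CPM) overlapped Blood_Normal. The log2 fold change between Brain_NMO and Blood_Normal was 0.80 (SE 0.43, adjusted p = 0.736, edgeR), with an unadjusted p under 0.05 in 7 of 20 alternatives. Pdia3, a thiol oxidoreductase that works with calreticulin and sits in the loading complex, was measured at 171, 71.0 and 158 CPM in Blood_Normal, 222, 105 and 52.2 CPM in Blood_NMO, and 273, 174 and 146 CPM in Brain_NMO. Its log2 fold changes from Blood_NMO and from Blood_Normal to Brain_NMO were 0.65 (SE 0.67) and 0.57 (SE 0.67), and the groups overlapped.

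Counted together, edgeR's test called 0 of the 10 genes after adjustment between Brain_NMO and Blood_NMO, where 0.247% of the 10107 genes tested passed. With the study's unadjusted threshold 1 of 10 was called lower (H2-K1) against 3.84% of all genes lower and 1.48% higher, and for 1 of 10 the groups did not overlap with brain lower, against 6.05% of all genes. The fitted value was below 0 for 8 of 10, against 48.6% of all genes, with a median of -0.27 against 0.05. Between Blood_NMO and Blood_Normal 0 of 10 passed an adjusted p of 0.05 (0% of all genes) or the unadjusted threshold (0.247% of all genes lower and 0.465% higher), while 2 of 10 (H2-K1 and H2-D1) were lower without overlap, against 4.45% of all genes, and the fitted value was below 0 for 6 of 10 against 57.4%. Between Brain_NMO and Blood_Normal 0 of 10 passed after adjustment (0.247% of all genes), 2 of 10 (H2-K1 and H2-D1) were called lower at the unadjusted threshold (4.07% of all genes lower and 1.75% higher), the same 2 were lower without overlap (9.37%), and 7 of 10 fitted values were below 0 against 53.7%. Separation depended on the scaling. On plain library totals 0 of 10 were lower (3.57% of all genes) and Calr was higher without overlap (2.87%) between Blood_NMO and Blood_Normal. Between Brain_NMO and Blood_Normal H2-K1 and B2m were lower (8.55%) and Calr was higher (6.5%). Between Brain_NMO and Blood_NMO H2-K1 alone was lower (6.14%), as before. On totals without Rn45s H2-D1 was lower (4.16%) and Calr higher (2.66%) between the blood groups. H2-K1 and H2-D1 were lower between Brain_NMO and Blood_Normal (9.35%), and H2-K1 between Brain_NMO and Blood_NMO (6.53%). The medians were -0.05 against -0.16 between the blood groups and -0.52 against -0.12 between Brain_NMO and Blood_Normal. Among the 10, DESeq2 also called 0 after adjustment in each comparison, and limma-voom gave 1, 0 and 2. Over all genes DESeq2 called 334, 72 and 367 and limma-voom 51, 0 and 33, where edgeR called 25, 0 and 25. The order is Brain_NMO against Blood_NMO, Blood_NMO against Blood_Normal and Brain_NMO against Blood_Normal. The brain comparisons share the Brain_NMO libraries and both comparisons with normal mice share Blood_Normal, so their values are not independent.

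**Figure D2:**
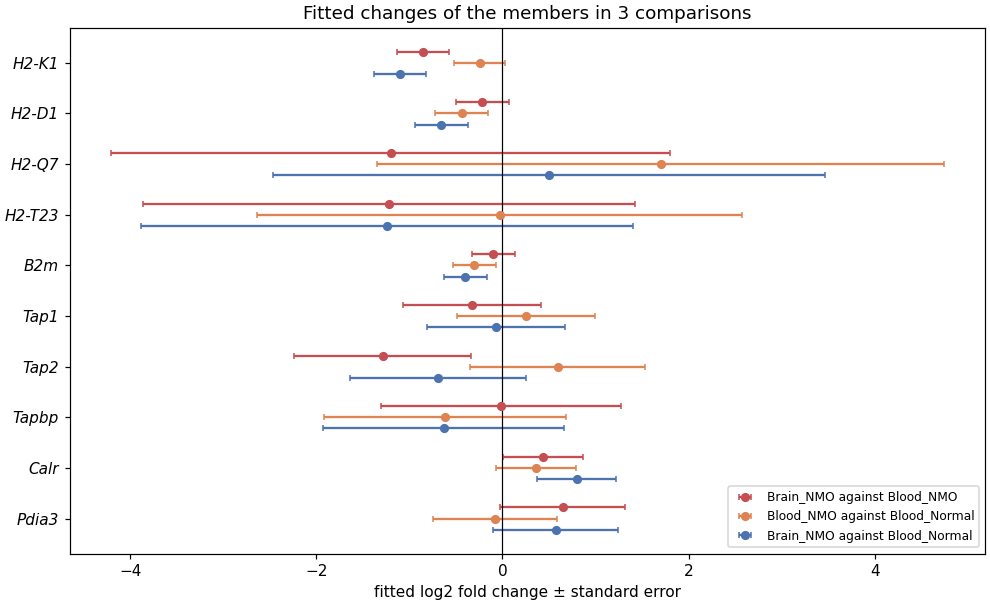
Fitted log2 fold change of each of the 10 genes in the 3 comparisons, with bars of 1 standard error on either side and a line at 0. The H2-K1 values of -0.85 and -1.10 in the brain comparisons lie several standard errors below 0, while the bars of H2-Q7 and H2-T23 run over more than 2 log2 units on either side.

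H2-K1 was also compared with B2m within each library, a measure that needs no scaling between libraries and was chosen after the levels had been seen. The count ratio of H2-K1 to B2m was 0.280, 0.339 and 0.320 in Blood_Normal and 0.245, 0.344 and 0.418 in Blood_NMO. In Brain_NMO it was 0.196, 0.187 and 0.188, below every blood library and with the smallest spread of the 3 groups (SD 0.00495, against 0.0302 in Blood_Normal and 0.0867 in Blood_NMO). The exact permutation test, two-sided, gave p = 0.1 for each brain comparison, the smallest value that 3 against 3 libraries allow. The ratio of H2-D1 to B2m overlapped between all groups, with means of 0.428, 0.380 and 0.360 in Blood_Normal, Blood_NMO and Brain_NMO. H2-K1 relative to H2-D1 was 0.790, 0.690 and 0.728 in Blood_Normal and 0.670, 0.423 and 0.544 in Brain_NMO without overlap, and it spread from 0.642 to 1.33 in Blood_NMO.

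The ratios of the loading chaperones Calr and Pdia3 to B2m were higher, not lower, in Brain_NMO than in Blood_Normal. The Calr to B2m ratio was 0.0652, 0.0673 and 0.0628 in Blood_Normal, 0.105, 0.106 and 0.0960 in Blood_NMO, and 0.169, 0.0833 and 0.196 in Brain_NMO. Each NMO group was above the normal group without overlap (p = 0.1 in the exact permutation test for each, the smallest possible), and the NMO groups overlapped. The Pdia3 to B2m ratio was 0.0521, 0.0443 and 0.0453 in Brain_NMO, above the 0.0149 to 0.0398 of Blood_NMO and the 0.0148 to 0.0303 of Blood_Normal, with the same p = 0.1 in the exact test. Among these ratios to B2m, those of Tap1, Tap2 and Tapbp overlapped in all 3 comparisons.

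**Figure D3:**
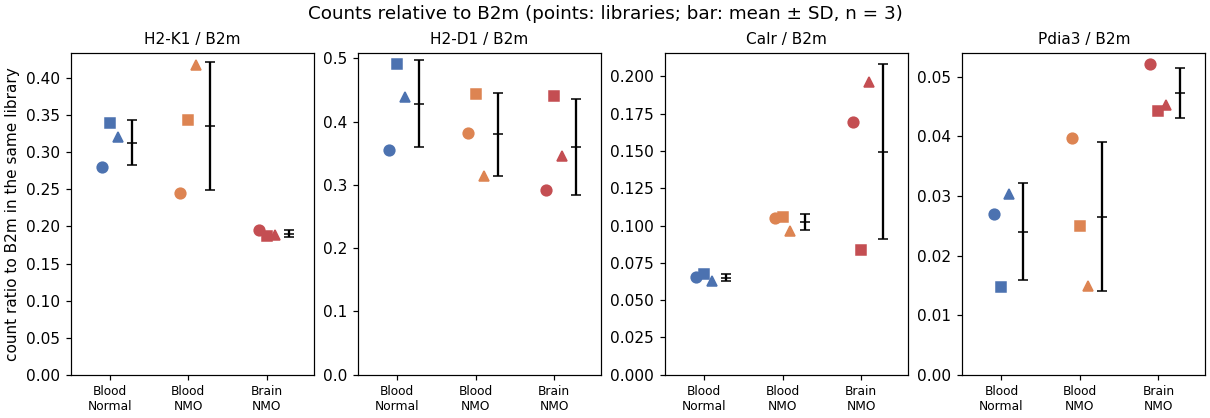
Counts of H2-K1, H2-D1, Calr and Pdia3 divided by those of B2m in the same library, with 1 point per library, color for the group, marker shape for the replicate, and the mean with SD (n = 3) beside the points. The Brain_NMO libraries lie together near 0.19 for H2-K1 and above all blood libraries for Pdia3, and they overlap the blood libraries for H2-D1.

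Beyond H2-K1 and H2-D1, the class I heavy chain genes called lower in brain were H2-Q9 and H2-T22, while most of those tested were not called. Of 33 heavy chain genes in the tables, which include the 4 described above, 25 had a count and 16 were tested. Between Brain_NMO and Blood_NMO, 3 were called lower at the unadjusted threshold (H2-K1, H2-Q9 and H2-T22), against 3.84% of all genes. The other 13 were not called, and the median log2 fold change was -1.21, against 0.05 over all genes. Between Brain_NMO and Blood_Normal 4 were called lower (H2-D1 in addition), against 4.07% of all genes, with a median of -2.05 against -0.12. Between the blood groups 0 of 16 were called, with a median of -0.27 against -0.16. Without H2-K1 and H2-D1, the summed heavy chain counts came to 757, 510.4 and 492 CPM in Blood_Normal, 649, 552 and 402 CPM in Blood_NMO, and 135, 118 and 152 CPM in Brain_NMO. The highest brain library was below the lowest blood library.

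H2-Q9, a second Qa-2 gene, had the largest part of that sum in blood, with 407, 239 and 327 CPM in Blood_Normal and 343, 344 and 228 CPM in Blood_NMO. It was at 46.3, 111 and 22.3 CPM in Brain_NMO, below all 6 blood libraries. The log2 fold changes were -2.35 against Blood_NMO (SE 0.62, adjusted p = 0.307, edgeR) and -2.44 against Blood_Normal (SE 0.62, adjusted p = 0.224), both past the unadjusted threshold only. Because Qa-2 genes are nearly identical, their counts were also summed: H2-Q6, H2-Q7, H2-Q8 and H2-Q9 together had 246 to 443 CPM in Blood_Normal, 262 to 360.4 CPM in Blood_NMO and 38.9 to 111 CPM in Brain_NMO. H2-T22, a non-classical heavy chain recognised by some gamma-delta T cells, was at 53.8, 35.4 and 50.8 CPM in Blood_Normal, 58.8, 35.7 and 48.8 CPM in Blood_NMO, and 4.18, 0.190 and 6.96 CPM in Brain_NMO. Its log2 fold change against Blood_NMO was -3.66 (SE 1.66, adjusted p = 0.802, edgeR), and 39% of its 3ʹ stretches also occur in H2-T10. The unadjusted p of H2-T22 stayed under 0.05 in 7 of 19 alternatives, against 20 of 20 for H2-Q9. H2-Q9, H2-T22 and the NK marker sum were all lower in Brain_NMO than in blood. Within brain, replicate 2 had the highest H2-Q9 and the lowest H2-T22 level. The part of NK cells in these genes was not tested. H2-K2, the third of the heavy chains named by level, spread from 0.190 to 78.7 CPM in Brain_NMO and from 0.364 to 91.9 CPM in blood.

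Peptide loading and folding genes in the endoplasmic reticulum, 16 tested with the 6 described above, had 0 calls between Brain_NMO and Blood_NMO. Over all genes 1.48% were higher and 3.84% lower at the unadjusted threshold in that comparison. Between Brain_NMO and Blood_Normal 2 were called higher at the unadjusted threshold, against 1.75% of all genes. The other 14 were not called, and the median was 0.23 against -0.12 for all genes. P4hb, a protein disulfide isomerase, was at 104, 92.6 and 136 CPM in Blood_Normal and 296, 413.6 and 181 CPM in Brain_NMO, a fitted log2 value of 1.42 (SE 0.54, adjusted p = 0.708, edgeR). Hsp90b1, the chaperone GRP94, was at 369, 429.6 and 320.1 CPM and at 510.4, 756 and 669 CPM in the same groups, with a log2 fold change of 0.79 (SE 0.36, adjusted p = 0.708, edgeR). For both genes every brain library was above every normal library, as for 6.07% of all genes. The unadjusted p was under 0.05 in 16 of 20 alternatives for P4hb and in 12 of 20 for Hsp90b1. Canx (calnexin) overlapped, with log2 fold changes of 0.18 and 0.24 from the blood groups to brain, and Hspa5 (BiP) had 0.58 (SE 0.27) and 0.41 (SE 0.27).

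Peptide supply showed 0 calls at the unadjusted threshold in any comparison, for 12 trimming and transport genes and for 8 genes of the immunoproteasome and its activator. Over all genes that threshold called 1.48% higher and 3.84% lower between Brain_NMO and Blood_NMO. It called 0.465% and 0.247% between the blood groups, and 1.75% and 4.07% between Brain_NMO and Blood_Normal. The medians between Brain_NMO and Blood_NMO were 0.18 and 0.68, against 0.05 over all genes. Psmb8, which makes a catalytic subunit of the immunoproteasome, was at 183, 190.5 and 216 CPM in Blood_Normal, 206, 154 and 0 CPM in Blood_NMO, and 202, 109 and 127 CPM in Brain_NMO. Psmb9 and Psmb10 were likewise at 0 in Blood_NMO replicate 3 and present in all other libraries. The 13 genes of class I export and turnover and the 4 class I-like molecules outside the MHC that were tested had 0 calls too.

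Among 19 transcriptional regulators of class I genes, 1 passed an adjusted p of 0.05 in each brain comparison and 18 did not, against 0.247% of all genes passing. Irf8, an interferon regulatory factor of the monocyte lineage, was at 1642, 1290.03 and 1557 CPM in Blood_Normal, 1279, 1431 and 1877 CPM in Blood_NMO, and 265, 137 and 192 CPM in Brain_NMO. Irf8 fell by 2.95 on the log2 scale against Blood_NMO (SE 0.34, adjusted p = 0.00183, edgeR) and by 2.92 against Blood_Normal (SE 0.34, adjusted p = 0.00205), and it passed in 20 of 20 alternatives of each. Nlrc5, the coactivator of class I promoters, was at 18.7, 46.8 and 130.2 CPM in Blood_Normal, 50.1, 55.2 and 0 CPM in Blood_NMO, and 30.8, 0 and 10.35 CPM in Brain_NMO, with overlap. Irf1 ranged from 133 to 488 CPM in Blood_Normal, from 112 to 391 CPM in Blood_NMO and from 157 to 196 CPM in Brain_NMO, with overlap as well.

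Of 9 genes of interferon receptors and their signalling, 2 were called lower at the unadjusted threshold in both brain comparisons, 0 were called between the blood groups, and 7 were not called. Over all genes 3.84% were called lower against Blood_NMO and 4.07% against Blood_Normal. Ifngr1, the ligand-binding chain of the interferon gamma receptor, was at 648, 843 and 718 CPM in Blood_Normal, 683, 717 and 955 CPM in Blood_NMO, and 332, 328 and 229 CPM in Brain_NMO. Its log2 fold change against Blood_NMO was -1.41 (SE 0.34, adjusted p = 0.209, edgeR). Jak1, the kinase of that receptor, was at 1185, 761 and 768 CPM, at 1169.8, 1159 and 776 CPM, and at 523, 352 and 406 CPM in the same order, with a log2 fold change against Blood_NMO of -1.28 (SE 0.34, adjusted p = 0.316, edgeR). For both genes all brain libraries were below all blood libraries, and the unadjusted p was under 0.05 in 20 of 20 alternatives of each brain comparison. Of 15 interferon-induced genes 0 were called between Brain_NMO and Blood_NMO. Against Blood_Normal 1 was called lower, the chemokine Cxcl9, with 10.5, 7.40 and 9.09 CPM in Blood_Normal and 0 in all Brain_NMO libraries, and its call was lost in 10 of 19 alternatives. Rsad2 (46.1 to 227 CPM in Brain_NMO, 12.7 to 88.0 CPM in Blood_Normal) and Mx1 (13.7 to 247 CPM and 49.96 to 96.2 CPM) overlapped. Of the 15 fitted values, 9 were higher and 6 lower in brain against Blood_NMO, with a median of 0.40 against 0.05 for all genes. Against Blood_Normal 10 were higher and 5 lower, with a median of 0.56 against -0.12.

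The receptors examined come from families that bind class I or class I-like molecules. Of 9 tested, 1 was called higher and 3 lower between Brain_NMO and Blood_NMO at the unadjusted threshold, against 1.48% and 3.84% of all genes. Between the blood groups 0 were called. Between Brain_NMO and Blood_Normal 1 was called higher and 2 lower, against 1.75% and 4.07% of all genes. Lilrb4a, an inhibitory receptor of myeloid cells from the leukocyte immunoglobulin-like family, was listed for its family, and class I binding is not established for it. It was at 291, 430.3 and 286 CPM in Blood_Normal, 312, 487 and 253 CPM in Blood_NMO, and 978, 802 and 1091 CPM in Brain_NMO. Its log2 fold change was 1.45 against Blood_NMO (SE 0.38, adjusted p = 0.308, edgeR) and 1.51 against Blood_Normal (SE 0.38, adjusted p = 0.224), with all brain libraries above all blood libraries. The 3 receptors called lower were Klrc1 (NKG2A), Klrd1 (CD94) and Klrk1 (NKG2D), which NK cells carry. Against Blood_NMO the unadjusted p was under 0.05 in 19 of 19 alternatives for Klrc1, 16 of 19 for Klrk1 and 7 of 20 for Klrd1. Klrc1 was at 59.0 to 132 CPM in Blood_Normal, 114 to 234 CPM in Blood_NMO and 0 to 5.99 CPM in Brain_NMO. The NK marker sum (21.3 to 336 CPM in brain) was also lower in brain than in blood. In the 3 brain libraries the NK marker Gzma was at 4.30, 163 and 47.5 CPM. Klrc1 was at 5.99, 0.0951 and 0 CPM there, Klrk1 at 18.7, 0 and 3.28 CPM, and Klrd1 at 27.3, 57.1 and 30.6 CPM. The part of NK cells in these values was not tested.

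MHC class II genes, which present peptides taken up from outside the cell, were examined beside class I in the same libraries. Of 10 tested, 4 were called higher at the unadjusted threshold between Brain_NMO and Blood_NMO (H2-Aa, H2-Ab1, H2-Eb1 and the protease Ctss), 6 were not, and the median log2 fold change was 1.54. Over all genes 1.48% were called higher, and the median was 0.05. H2-Ab1 was at 895, 546 and 723 CPM in Blood_Normal, 634, 563 and 61.6 CPM in Blood_NMO, and 987, 2297 and 947 CPM in Brain_NMO, so that Blood_NMO replicate 3 was the lowest library. The log2 fold change of H2-Ab1 was 1.75 (SE 0.64, adjusted p = 0.802, edgeR), and 0.92 by limma-voom. Without Blood_NMO replicate 3 the values of H2-Aa, H2-Ab1, H2-Eb1 and Ctss were 1.21, 1.25, 1.32 and 0.88, and all 4 calls were kept. Over 20 alternatives the call was lost in 3 for H2-Aa, 2 for H2-Ab1, 3 for H2-Eb1 and 0 for Ctss. The microglia marker sum was also higher in brain, and its part in these values was not tested. Against Blood_Normal 0 of the 10 were called (1.75% of all genes higher and 4.07% lower), with a median of 0.97 against -0.12. In the same contrast with Blood_NMO, H2-K1 and H2-Q9 were called lower, as given above.

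**Figure D4:**
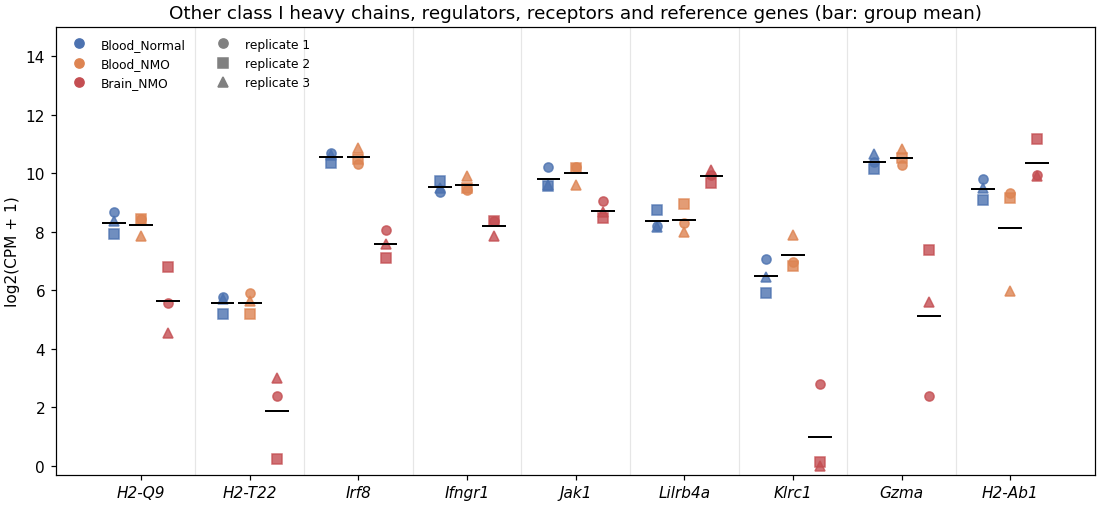
Levels of 2 other class I heavy chains (H2-Q9, H2-T22), of Irf8, Ifngr1 and Jak1, of the receptors Lilrb4a and Klrc1, of the NK marker Gzma and of the class II gene H2-Ab1 in the 9 libraries, as log2(CPM + 1), with color for the group, marker shape for the replicate and a bar at the group mean. Brain_NMO lies below all blood libraries for the first 5 genes, Klrc1 and Gzma, and above them for Lilrb4a and H2-Ab1.

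The 10 genes did not share a single profile over the 9 libraries. The root mean square deviation from a gene's own mean, on the scale of log2(CPM + 1), was 0.31 for B2m, 0.40 for H2-D1 and Tap1, 0.49 for Calr and 0.52 for H2-K1, and it reached 1.10 for Tap2, 1.62 for H2-Q7 and 2.56 for Tapbp. The closest pair of centred profiles was H2-D1 with B2m (root mean square difference 0.24), followed by H2-K1 with B2m (0.41). Among 2914 other genes with a mean of at least 50 CPM, the 5 nearest to the mean centred profile of the 10 were Rpsa, Wdr89, Rplp2-ps1, Rps14 and Pabpc1, with differences of 0.15 to 0.18 over the 9 libraries. With a pseudocount of 0.1 in place of 1, 2 of these 5 stayed among the nearest.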

How the data were processed

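The authors prepared QuantSeq 3ʹ libraries from the RNA of sorted monocytes, aligned single-end reads with Bowtie2 to mm10, counted unique and multiple alignments with bedtools, and deposited the raw counts of each gene symbol. Versions of these tools and the annotation are not given in the sources used here. Of each of 35 symbols listed more than once, only the entry of highest count was used.

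Groups came from the labels. Counts of all 9 libraries were fitted in R 4.3.3 with edgeR 4.0.16 (TMM factors, filterByExpr, glmQLFit, glmQLFTest), with Benjamini-Hochberg adjustment over 10107 genes and a pseudocount of 1 for log2 levels. Calls used an adjusted p under 0.05 or, as a separate rule, the study's unadjusted p under 0.05 with a fold change of 1.2. The fit was tested on simulated data with dispersions below the common dispersion of these data (2.87). That test therefore does not show how the fit behaves at this spread. Alternatives were RLE factors, library sizes alone, other filters, a block for the replicate number, a fit of only the groups compared, a robust fit, each replicate left out in turn, DESeq2 1.42.0, limma-voom (limma 3.58.1), Rn45s removed and repeated entries summed.

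Named were the 10 genes, for each other role the 3 genes of highest mean level considered for description and every gene called, and the 5 nearest profiles. Members and lists were chosen with earlier results of these data known. Positions and shared 75-base stretches came from GENCODE vM21, and promoters from RefSeq.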

Additional observations from a re-analysis of the deposited data

How the results depend on the processing

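The spread between pools was wide (common dispersion 2.87). Tapbp rested on Blood_NMO replicate 3, and H2-Q7 and H2-T23 on few counts. Of the 10 genes, limma-voom with sample quality weights gave 1 and 2 with an adjusted p under 0.05 in the comparisons of Brain_NMO with Blood_NMO and with Blood_Normal, against 0, and it shifted the median log2 fold change of all genes to -0.65, 0.18 and -0.43. Against Blood_Normal, no filter and the robust fit each gave 1, where 115 and 38 of all genes passed. H2-K1 was the gene with an adjusted p under 0.05 in each, with H2-D1 as the other by limma-voom, and the adjusted p of H2-K1 ran from 0.0231 to 1 and from 0.00974 to 0.702 over the alternatives of the brain comparisons. At the unadjusted threshold, limma-voom gave 2 genes between Brain_NMO and Blood_NMO in place of 1, and between Brain_NMO and Blood_Normal it gave 4 and DESeq2 gave 1, in place of 2. Against Blood_Normal, Calr in Brain_NMO passed it in addition with RLE factors (0.88), library sizes alone (0.85) and the robust fit (0.80). With 10 counts required in every library, Calr (0.87) passed and H2-D1 did not. Without a filter, B2m (-0.42) passed in addition. Leaving out a replicate gave 0 to 1 genes between Blood_NMO and Blood_Normal, with the 1 found without Blood_NMO replicate 1, and 1 to 3 between Brain_NMO and Blood_Normal. The cause was not tested.

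Same-numbered libraries correlated at -0.0102 to 0.116, so the numbers were not taken to pair samples. Even so, 7 of 9 libraries correlated best with one of their own number. In each group replicate 1 had the highest Rn45s share, at 43.6% in Blood_Normal, 42.2% in Blood_NMO and 39.3% in Brain_NMO. It also had the most genes with a count and the lowest TMM factor of its group. The replicate number thus went with library traits, and the cause was not tested. With the replicate number as a block, 2 genes (H2-D1 and B2m) passed the unadjusted threshold between Blood_NMO and Blood_Normal, in place of 0, B2m (-0.42) passed it in addition between Brain_NMO and Blood_Normal, and over all genes 22, 0 and 22 genes had an adjusted p under 0.05, in place of 25, 0 and 25. The block also turned Tapbp to 0.19 between Brain_NMO and Blood_NMO, and H2-Q7 to -0.54 and -2.47 in the comparisons of Blood_NMO and Brain_NMO with Blood_Normal. It changed no other call among the 10 genes.

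Other changes of sign, all in log2 fold changes that were not called, came for Tapbp between Brain_NMO and Blood_NMO with RLE factors (0.073) and DESeq2 (0.073), and for Tap1 between Brain_NMO and Blood_Normal with RLE factors (0.010) and DESeq2 (0.010), and with limma-voom (0.068). limma-voom turned H2-Q7 to -0.47, H2-T23 to 0.89 and Pdia3 to 0.44 between Blood_NMO and Blood_Normal, and H2-Q7 to -0.80 between Brain_NMO and Blood_Normal. Leaving out a replicate in turn gave -0.31 to 0.10 for B2m, -1.14 to 0.48 for Tapbp and -4.63 to 1.05 for H2-Q7 between Brain_NMO and Blood_NMO. It gave -0.76 to 0.30 for Pdia3, -0.49 to 1.52 for H2-T23 and -0.53 to 2.19 for H2-Q7 between Blood_NMO and Blood_Normal. It gave -2.32 to 0.30 for H2-T23, -2.93 to 1.10 for H2-Q7 and -0.38 to 0.22 for Tap1 between Brain_NMO and Blood_Normal. The cause was not tested.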
